A study of Mus musculus with 32 samples.

Results

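The collagen genes encode the alpha chains from which the collagens are built. They were taken as the protein-coding genes whose symbol is Col, a type number, the letter a and a chain number, and whose raw count averaged at least 10 over the 32 libraries. Of the 54532 genes in the count table, 31 collagen genes met this rule and 13 others fell below the count minimum. Kidneys came from wt (wild-type) mice of the inbred strain C57bl/6, which were 6 to 8 weeks old according to the methods of the study. Each sex had 4 groups of 4 mice, 1 taken at Day 0 and the others on Day 2, Day 3 or Day 5 following 1 intraperitoneal injection of 20 mg/kg cisplatin. Cisplatin is a platinum drug given against tumours, and it injures the tubules of the kidney (acute kidney injury). Day 0 mice stood for healthy animals in the study, although the labels of the Day 0 females name cisplatin as the treatment and those of the Day 0 males name none. The comparisons address how each collagen gene differed from Day 0 in each sex, and how males differed from females. All groups are of 1 strain and 1 tissue, and whole kidney RNA mixes every cell type, so fewer cells of a type and less RNA per cell cannot be told apart.

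Collagens are trimers of alpha chains wound into a helix, secreted by the cell and assembled outside it. Type IV collagen forms the sheet-like network of basement membranes, and in the kidney the chains encoded by Col4a3, Col4a4 and Col4a5 make up the network of the mature glomerular basement membrane, whose loss causes Alport syndrome. Fibrillar collagens such as types I and III form the rope-like fibres of the interstitium and are the collagens best known for accumulating in kidney fibrosis. Other classes decorate those fibres, form beaded filaments around cells, span the cell membrane or join basement membranes to the tissue beneath.

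The 32 libraries held 16502107 to 35961325 counts, of which 10864 to 23141 fell on collagen genes in the Day 5 males and at most 89140 in any library. Mitochondrial transcripts took 42.5 to 79.8% of the counts in the Day 5 males and 9.302 to 77.9% in the Day 5 females, against 4.49% to 24.0% in the other groups, which left fewer counts for other genes at Day 5. A few libraries stood apart in collagen level from the rest of their group. Each mouse was set against the median of the other mice of its group, gene by gene. In mouse 4 of the Day 0 males 24 of the 31 genes lay above that median, and in mouse 4 of the Day 0 females 27 did. Mouse 3 lay below it for 24 genes in Day 0 males and 23 in Day 0 females, and Day 0 female mouse 2 for 24. In Day 2 male mouse 4 and Day 5 female mouse 2, 26 and 27 genes were high, and in Day 2 male mouse 2 and Day 5 male mouse 1, 26 and 27 genes were low. Day 5 male mouse 1 also held 4153 counts of Xist, the transcript of the inactive X chromosome of female cells, beside 387 counts of Y-linked genes, so the library labelled male held transcripts of both kinds. Xist was at 242 counts in Day 0 male mouse 4 and 260 in Day 5 male mouse 2, and at 0 to 89 in the other males. The 4 Day 0 females held 5 to 221 Y-linked counts, and all other females held 0. Proximal tubule markers summed to between 1379 and 84560 CPM (counts scaled to library size by TMM over the 32 libraries), so these transcripts of kidney were present in each group. Their mean was lowest in the Day 5 males, at 4857 CPM (range 1379 to 8789), against 45520 (20900 to 84560) in the Day 0 males.

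The genes of type IV collagen lie in pairs that start close together and point away from each other, and the starts of 5 of the 6 are shown because the results return to these pairs. Each is the 300 bases around the start of the gene in GRCm38.p6, 250 before it and 50 after it, written 5′ to 3′ on the strand of the gene and taken from RefSeq. Capitals mark each CCAAT box (CCAAT, or ATTGG on the other strand) and each GC box (GGGCGG, or CCGCCC on the other strand), the letter patterns searched for. Col4a1 is at chr8:11312777-11313076 on the minus strand, Col4a2 at chr8:11312555-11312854 on the plus strand, Col4a4 at chr1:82586800-82587099 on the minus strand, Col4a5 at chrX:141475169-141475468 on the plus strand and Col4a6 at chrX:141474027-141474326 on the minus strand.
Col4a1: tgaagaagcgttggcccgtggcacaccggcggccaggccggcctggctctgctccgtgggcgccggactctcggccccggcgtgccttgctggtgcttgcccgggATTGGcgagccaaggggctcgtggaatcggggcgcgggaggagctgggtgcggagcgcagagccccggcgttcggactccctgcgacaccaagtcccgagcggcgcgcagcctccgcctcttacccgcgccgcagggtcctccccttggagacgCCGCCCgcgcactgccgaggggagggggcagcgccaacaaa
Col4a2: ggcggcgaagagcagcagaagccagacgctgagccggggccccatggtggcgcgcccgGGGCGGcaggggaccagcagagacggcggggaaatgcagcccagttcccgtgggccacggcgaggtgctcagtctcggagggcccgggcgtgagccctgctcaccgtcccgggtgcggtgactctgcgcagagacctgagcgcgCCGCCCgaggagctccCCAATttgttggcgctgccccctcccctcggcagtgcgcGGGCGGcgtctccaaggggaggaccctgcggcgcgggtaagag
Col4a4: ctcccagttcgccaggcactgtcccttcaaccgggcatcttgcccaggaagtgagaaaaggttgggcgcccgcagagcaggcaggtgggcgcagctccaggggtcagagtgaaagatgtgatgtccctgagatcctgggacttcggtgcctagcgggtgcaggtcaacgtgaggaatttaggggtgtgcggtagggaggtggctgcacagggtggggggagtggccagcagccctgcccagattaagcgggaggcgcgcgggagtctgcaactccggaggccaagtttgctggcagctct
Col4a5: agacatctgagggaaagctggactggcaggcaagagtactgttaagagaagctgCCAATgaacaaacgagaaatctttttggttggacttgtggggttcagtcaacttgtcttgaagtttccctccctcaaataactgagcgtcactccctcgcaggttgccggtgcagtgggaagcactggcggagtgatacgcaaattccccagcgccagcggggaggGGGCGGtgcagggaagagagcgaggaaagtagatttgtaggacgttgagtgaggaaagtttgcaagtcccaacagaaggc
Col4a6: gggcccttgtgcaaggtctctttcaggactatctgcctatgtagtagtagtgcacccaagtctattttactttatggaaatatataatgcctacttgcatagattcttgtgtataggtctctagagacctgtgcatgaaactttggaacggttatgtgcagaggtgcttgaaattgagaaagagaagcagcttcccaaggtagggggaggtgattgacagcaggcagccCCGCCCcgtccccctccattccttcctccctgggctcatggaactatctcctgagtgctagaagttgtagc

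The annotated starts of Col4a1 and Col4a2 overlapped by 22 bases, so the 3′ ends of these printed stretches hold the same bases on opposite strands. The starts of Col4a4 and Col4a3 were 71 bases apart, and those of Col4a6 and Col4a5 were 1308 bases apart on chromosome X. The Col4a1 stretch held 1 CCAAT box and 1 GC box, that of Col4a2 1 and 3, that of Col4a5 1 and 1, that of Col4a6 a single GC box, and that of Col4a4 neither. Of the 31 genes, 25 had an entry, with 27 stretches in all, of which 8 held a CCAAT box and 19 a GC box. Over all 32851 such stretches of the mouse genome, 37.4% held a CCAAT box and 35.7% a GC box. A match describes the letters and is not a shown binding site. Other collagen genes also lie side by side, namely Col3a1 and Col5a2 on chromosome 1 with 24614 bases between them, Col6a6 and Col6a5 on chromosome 9 with 27917 bases, and Col6a2 and Col6a1 on chromosome 10 with 85161 bases.

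By FPKM, the deposited values per gene length that allow levels to be compared between genes, type IV and type XVIII collagen led the kidney. Averaged over the 32 libraries, Col4a1 stood at 32.7 FPKM, Col18a1, which encodes a basement membrane collagen whose end fragment is endostatin, at 32.3 and Col4a2 at 27.4. Col4a4 at 15.6 FPKM and Col4a3 at 12.9 followed. These 5 genes exceeded 10 FPKM, 15 genes lay between 1 and 10, and 11 lay under 1. The chains of type I collagen (Col1a1, 8.73 FPKM, and Col1a2, 8.48) and of type III (Col3a1, 8.77) were nearly level with each other and with Col6a1 at 9.06, the chain most abundant among those of type VI, the beaded filament collagen. The spread between libraries of Col1a1 and Col3a1 was wide, at 86.9% and 84.2% of the mean (coefficient of variation), against 28.5% for Col18a1 and 21.3% for Col4a4, so the order among these neighbours did not stand clear of it. The lowest of these means were those of Col11a2 at 0.192 FPKM and Col6a6 at 0.185. The order differed between groups, since Col18a1 stood at 31.6 FPKM and Col4a1 at 19.9 in Day 0 females, and Col6a6 at 0.445 and Col11a2 at 0.0938 in Day 0 males. Col11a2 (mean raw count 24.6) and Col6a6 (36.2) were also the genes just inside the count minimum, while Col17a1 (8.94) and Col24a1 (7.88) were just outside it.

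**Figure D1:**
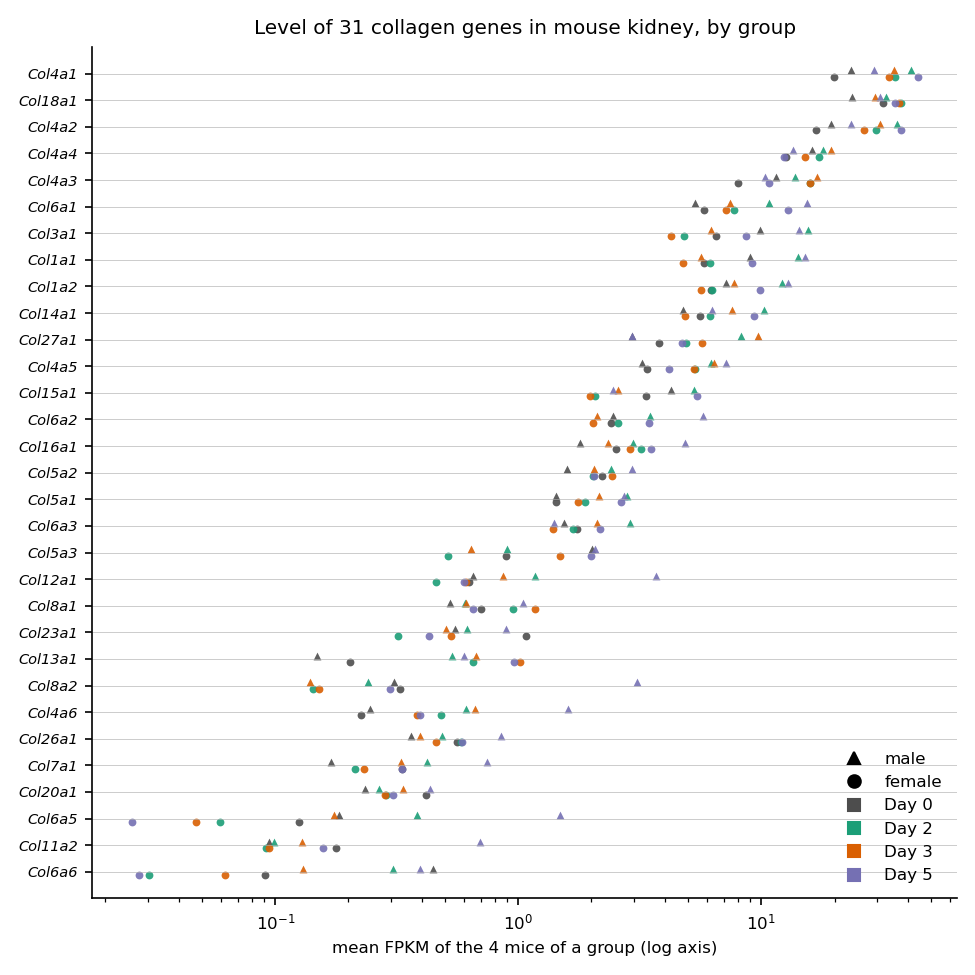
Mean FPKM of each of the 31 collagen genes in the 8 groups (log axis), with triangles for males, circles for females and colours for days. Genes are ordered by their mean over the 32 libraries, with Col4a1, Col18a1 and Col4a2 highest, and the Day 5 male points of the low genes Col6a5 and Col8a2 lie to the right of their other groups.

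Col4a1 and Col4a2, the 2 chains of the network found in every basement membrane, made up 26.9 ± 3.97% (mean ± SD, n = 4) of the summed collagen FPKM in Day 0 males and 23.9 ± 5.75% in Day 0 females. The share was 32.7 ± 1.31% in the Day 3 males, 24.2 ± 3.63% in the Day 5 males and 35.4 ± 2.899% in the Day 5 females. The 8 fibrillar genes together made up 19.3 ± 8.78% in Day 0 males, 23.7 ± 7.05% in Day 5 males, 18 ± 3.06% in Day 0 females and 16.6 ± 2.83% in Day 5 females. The summed level of all 31 genes was 1278 ± 567 CPM in Day 0 males, 2040.0 ± 855 at Day 2, 1690.0 ± 25.2 at Day 3 and 1614 ± 262 at Day 5. In females it was 1175 ± 439.6 CPM, 1637 ± 329, 1530.0 ± 95.8 and 1754 ± 751 on the same days. On this TMM scale the means after cisplatin were all above Day 0, but single Day 0 mice reached 707 to 2062 CPM in males and 765 to 1794 in females, ranges that overlap every later group of the same sex. As a share of all counts, mitochondrial ones included, the direction at Day 5 turned in males, from 0.1345 ± 0.0594% at Day 0 to 0.073 ± 0.0297%, and was 0.126 ± 0.0566% and 0.136 ± 0.0287% in females.

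Gene by gene, few collagen genes were called, and in males most calls were rises. A gene is called here when its p in the quasi-likelihood test of edgeR, adjusted over all genes tested by the Benjamini-Hochberg method, lies under 0.05, and log2 fold changes are of the later day over Day 0. At Day 2 in males 2 of the 31 genes rose and 0 fell, or 6.45%, where 1.81% of all genes tested rose and 1.35% fell. At Day 3 in males 3 rose and 1 fell, shares of 9.68% and 3.23% that did not exceed the 11.4% of all genes that rose and the 13.1% that fell. At Day 5 in males 6 rose and 0 fell, or 19.4%, where 8.98% of all genes rose and 10.2% fell. The median log2 fold change of the 31 genes was 0.67, 0.39 and 0.86 on the 3 days, against 0.03, 0.02 and 0.04 over all genes, and 28, 22 and 25 of the genes had a positive value. All of these comparisons within a sex share the 4 Day 0 mice.

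In females the edgeR fits of 1 day with Day 0 called 0 of the 31 genes on each day, while a single fit over all 8 groups called 1, 1 and 2. At Day 2, where 0.774% of all genes rose and 1.16% fell by edgeR, DESeq2 called 1, Col23a1. An unadjusted p under 0.05 by edgeR was found for 3 collagen genes, and for 4189 of all 16541 genes tested. At Day 3, where 1.26% of all genes rose and 4.28% fell, DESeq2 called 1, Col13a1. The unadjusted p was under 0.05 for 2 collagen genes, and for 5247 of all 17065 genes tested. At Day 5, where 0.185% of all genes rose and 0.0738% fell, DESeq2 called 0. The unadjusted p was under 0.05 for 7 collagen genes, and for 2548 of all 16260 genes tested. The medians over the 31 genes were 0.10, -0.03 and 0.31, with 18, 15 and 20 positive values. In the edgeR fits of 1 day with Day 0, over both sexes, 8 genes were called in at least 1 of the 6 comparisons and 23 in none. Col4a1, Col4a2, Col4a5, Col4a6, Col18a1, Col5a1, Col6a1, Col13a1 and Col16a1 had a positive log2 fold change in all 6, and Col6a6 had a negative one in all 6.

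**Figure D2:**
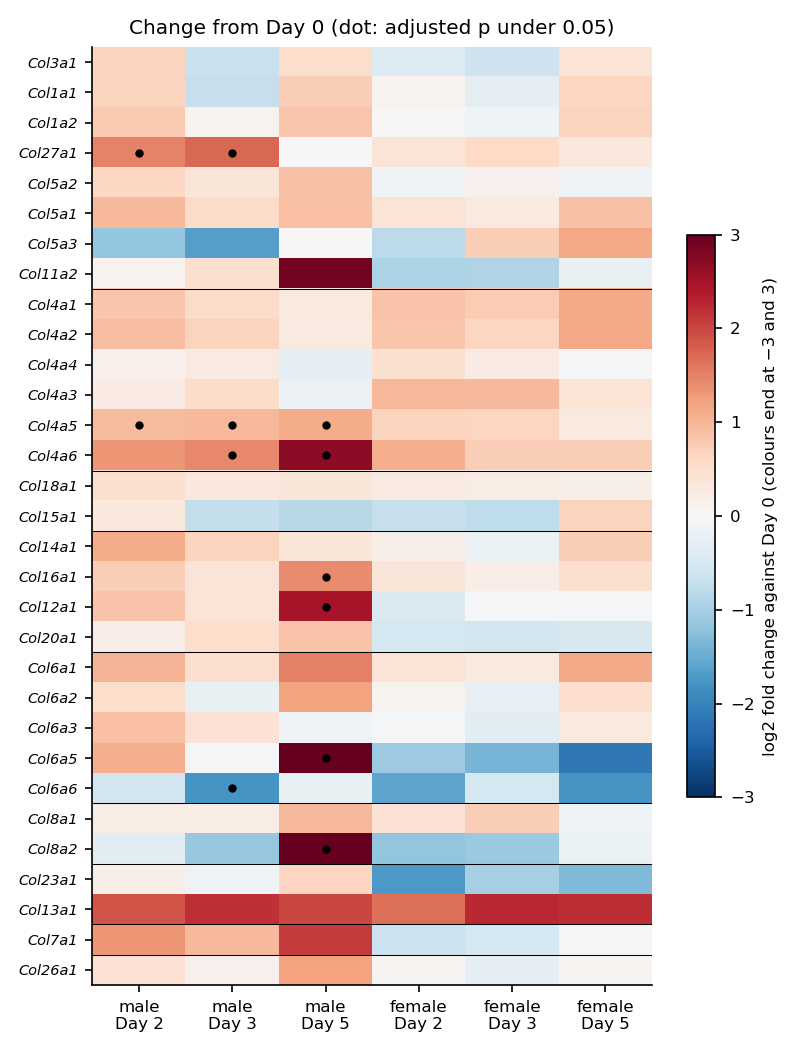
Log2 fold change against Day 0 of the 31 collagen genes (one line each, grouped by class) in the 6 comparisons of a day with Day 0, red for higher and blue for lower, with a dot where the adjusted p was under 0.05. The 12 dots all lie in the male columns, 6 of them at Day 5, and the type IV genes at the top of their block are red in most columns.

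Among the type IV genes, Col4a5 (chrX:141475385-141689234, plus strand) was called most often, on all 3 days in males. It encodes the chain shared by the glomerular network and that of Bowman's capsule. Its level in the 4 Day 0 males was 24.9, 25.8, 12.8 and 24.4 CPM (mice 1 to 4). At Day 2 it was 44.2, 38.1, 46.7 and 41.8 CPM, at Day 3 40.4, 45.4, 43.4 and 45.8, and at Day 5 39.6, 42.98, 36.6 and 58. Each later male lay above every Day 0 male, and mouse 3 was the lowest of Day 0. The log2 fold changes were 0.95 (SE 0.205, adjusted p = 0.0467) at Day 2, 0.98 (SE 0.194, adjusted p = 0.0136) at Day 3 and 1.12 (SE 0.244, adjusted p = 0.0168) at Day 5, by edgeR. The Day 2 call was lost without Day 0 mouse 1 or 2 or any one Day 2 mouse (adjusted p 0.0871 to 0.151), the Day 3 call without Day 3 mouse 3 (0.0524) and the Day 5 call without Day 5 mouse 2 (0.0528) or mouse 4 (0.0517). In females Col4a5 stood at 18.6, 13.04, 9.25 and 50.6 CPM at Day 0, 34.3, 45.2, 35.3 and 36.3 at Day 2, 37.3, 43.4, 36.01 and 30.3 at Day 3 and 25.6, 36.96, 18.3 and 32.5 at Day 5. Day 0 female mouse 4 was above every later female, while the other 3 Day 0 females lay below every Day 2 and Day 3 female. The log2 fold changes in females were 0.68, 0.64 and 0.30, and none was called (adjusted p = 0.354, 0.3605 and 0.771 by edgeR).

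Col4a6 (chrX:141165403-141474076, minus strand), the neighbour of Col4a5, encodes the partner chain of the network of Bowman's capsule and collecting ducts. It was scarce at Day 0, at 2.07, 2, 0.691 and 3.201 CPM in males. It was 5.86, 3.102, 4.95 and 6.08 CPM at Day 2, 4.73, 5.64, 5.39 and 5.85 at Day 3 and 7.53, 11.98, 12.1 and 15.4 at Day 5. The lowest Day 5 male was above the highest male of every earlier day, and only at Day 2 did the male groups overlap with Day 0. The rise was 1.44 (SE 0.386, adjusted p = 0.0313) at Day 3 and 2.68 (SE 0.441, adjusted p = 0.00872) at Day 5, by edgeR, with 1.32 at Day 2 (adjusted p = 0.0914), which DESeq2 called. The Day 5 call held in every alternative fit, while the Day 3 call was lost without Day 0 mouse 1 or 2 or any one Day 3 mouse (adjusted p 0.0617 to 0.0861) and in the fit over all 8 groups (0.0993). In females the values were 1.61, 1.25, 0 and 4.43 CPM at Day 0 and 1.37, 7.75, 1.31 and 1.99 at Day 5, with mouse 2 the only high one of Day 5, and log2 fold changes of 1.08, 0.74 and 0.73 were not called.

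The 2 most abundant type IV genes had positive values in both sexes without a call. Col4a1 stood at 169, 167, 88.4 and 282 CPM in Day 0 males, at 277, 208, 212 and 568 at Day 2, at 293, 262, 263 and 253 at Day 3 and at 173, 167, 239 and 222 at Day 5. Day 0 mouse 4 was as high as the Day 3 males, and mouse 3 was far below the others. In females Col4a1 was 145, 109.6, 66.2 and 279 CPM at Day 0, 418, 257, 243 and 193 at Day 2, 284, 253, 272 and 232 at Day 3 and 248, 601, 232 and 232 at Day 5. Again mouse 4 alone of Day 0 reached the later levels. The log2 fold changes were 0.82, 0.58 and 0.29 in males and 0.85, 0.75 and 1.14 in females, the last with an SE of 0.473 and an adjusted p of 0.285 by edgeR. Col4a2 moved beside it, from 129 ± 73.7 CPM at Day 0 to 246 ± 124 at Day 2, 207 ± 11.04 at Day 3 and 143 ± 23.6 at Day 5 in males, and from 112 ± 60.96 to 206 ± 102, 181 ± 13.7 and 248 ± 119.5 in females (mean ± SD, n = 4). Its log2 fold changes were 0.92, 0.66 and 0.26 in males and 0.83, 0.65 and 1.15 in females. The gene models of Col4a1 and Col4a2 overlap at their starts on opposite strands, and whether the counting used strand is not stated in the sources used here, so reads there cannot be assigned with certainty.

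Col4a3 and Col4a4, the other chains of the glomerular network, rank next. Col4a3 was 148, 145, 38.6 and 137 CPM in Day 0 males, 152, 126, 168 and 112 at Day 2, 151, 199, 175 and 168 at Day 3 and 172, 72.4, 58.9 and 82.4 at Day 5. The Day 0 and Day 5 males overlapped, with mouse 3 the lowest of Day 0 and mouse 1 the highest of Day 5. In females Col4a3 was 93.3, 48.8, 22.4 and 159.7 CPM at Day 0, 123, 205, 166 and 169 at Day 2, 148, 209, 167 and 134 at Day 3 and 106, 108, 77.2 and 144 at Day 5, with mouse 3 the lowest and mouse 4 the highest of Day 0. The log2 fold changes of Col4a3 were 0.25, 0.56 and -0.17 in males and 0.98, 0.98 and 0.42 in females, none called. Those of Col4a4 were smaller, at 0.15, 0.26 and -0.28 in males and 0.47, 0.26 and -0.02 in females, on levels of 173 ± 35.4 CPM and 135 ± 40.2 at Day 0 and 134 ± 34.4 and 133 ± 29.2 at Day 5. Col4a3 overlaps the transcript C430014B12Rik on the opposite strand, which held few counts.

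**Figure D3:**
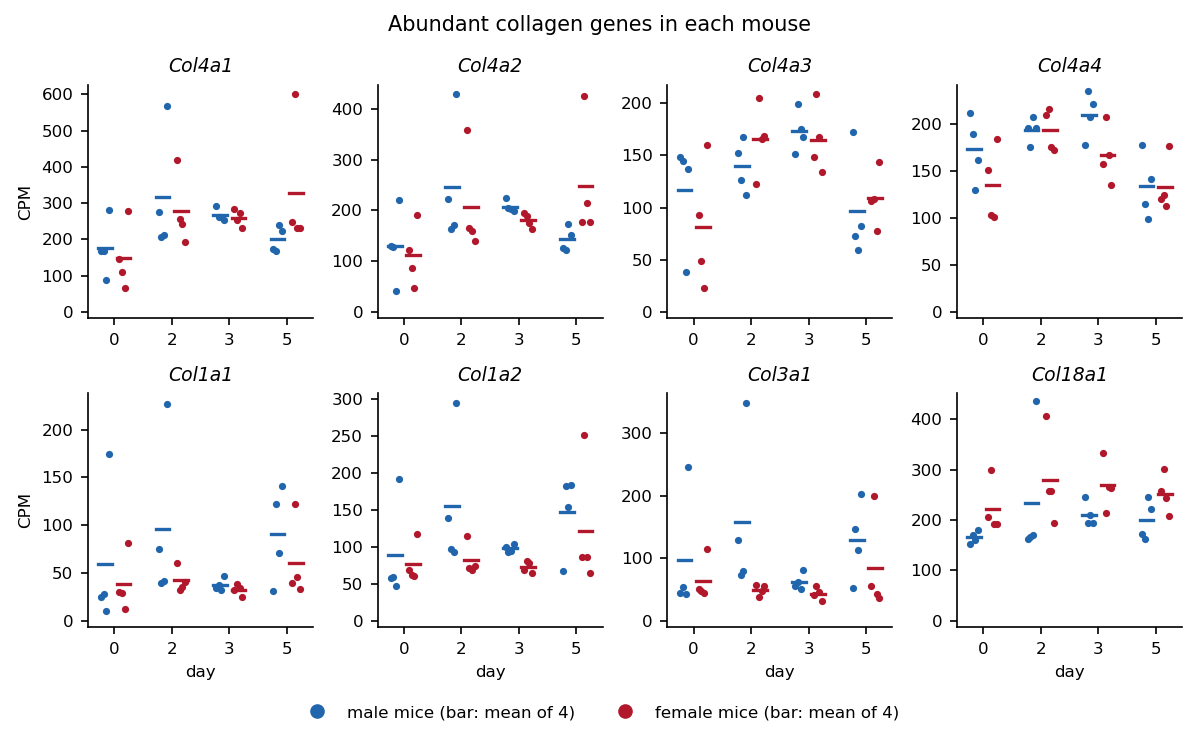
CPM of 8 abundant collagen genes in each mouse by day (points), males in blue and females in red, with a bar at the mean of the 4 mice. One Day 0 point of each sex stands high for Col1a1, Col1a2 and Col3a1, namely mouse 4 (Col1a1 at 174.6 CPM in the male), and the Day 3 males lie close together.

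Col4a1 and Col4a2 encode chains that share a trimer. The log2 ratio of their FPKM lay between 0.17 and 0.39 as group means in all 8 groups, and the SD was largest in Day 0 males at 0.38, where mouse 3 stood at 0.96. The log2 ratio of Col4a3 to Col4a4 was -0.63 ± 0.69 in Day 0 males, -0.95 ± 0.84 in Day 0 females, -0.19 ± 0.08 in Day 3 males and 0.07 ± 0.04 in Day 3 females. The log2 ratio of Col1a1 to Col1a2, which share the trimer of type I collagen in unequal parts, was -0.25 ± 0.86 in Day 0 males, 0.00 ± 0.40 at Day 2, -0.47 ± 0.18 at Day 3 and 0.13 ± 0.37 at Day 5. In females it was -0.34 ± 0.70, -0.04 ± 0.11, -0.26 ± 0.13 and -0.09 ± 0.10. The Day 0 mice spanned the group means of every later day of their sex for both of the latter ratios, except that the Day 3 females lay above the Day 0 females in the ratio of Col4a3 to Col4a4.

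Of the fibrillar genes, Col27a1 (chr4:63214004-63334991) was the only one called against Day 0. It encodes a fibrillar collagen best known from cartilage. In Day 0 males it stood at 34.2, 31.1, 36.05 and 51.6 CPM, at Day 2 at 59.5, 101, 178 and 99.1, at Day 3 at 166, 98.1, 177 and 75.7 and at Day 5 at 37.1, 33.5, 25.8 and 45.5. All Day 2 and Day 3 males were above all Day 0 males, and the Day 5 males were back within the range of Day 0 or below it. The rise was 1.49 (SE 0.319, adjusted p = 0.0462) at Day 2 and 1.73 (SE 0.306, adjusted p = 0.0103) at Day 3 on the log2 scale, by edgeR, and the Day 5 value was -0.01. The Day 2 call was lost without Day 0 mouse 1 or 2 or any one Day 2 mouse (adjusted p 0.0511 to 0.135), while the Day 3 call held whichever mouse was left out. In females Col27a1 was 32.6, 31.6, 34.3 and 100.1 CPM at Day 0, 52.5, 67.7, 87.4 and 60.2 at Day 2, 111, 35.5, 50.1 and 110.3 at Day 3 and 101, 72.7, 35.2 and 37.6 at Day 5. Mouse 4 of Day 0 lay above all Day 2 females, and the log2 fold changes of 0.38, 0.59 and 0.31 were not called.

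The type I and type III genes were not called against Day 0 in either sex. Col1a1 stood at 25.3, 27.6, 10.1 and 175 CPM in Day 0 males, 75.5, 39.8, 41.9 and 227 at Day 2, 34.8, 37, 32.2 and 46.8 at Day 3 and 31.4, 122, 70.6 and 141 at Day 5. Mouse 4 of Day 0 was above all later males but Day 2 mouse 4, and the other 3 Day 0 males lay below every later male. In females Col1a1 was 30.3, 28.9, 12.9 and 81.6 CPM at Day 0, 60.4, 32.7, 35.8 and 40.6 at Day 2, 31.9, 38.6, 34.04 and 25.1 at Day 3 and 39.1, 122, 45.5 and 33.7 at Day 5, with Day 0 mouse 4 and Day 5 mouse 2 the high ones. Its log2 fold changes were 0.67, -0.69 and 0.74 in males, with SEs of 0.884, 0.758 and 0.803, and 0.10, -0.29 and 0.65 in females.

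Col3a1 followed the same mice, at 44.2, 54.4, 43.1 and 247 CPM in Day 0 males and 53.3, 147, 113 and 203 in Day 5 males, and at 50.4, 47.2, 44.7 and 114 in Day 0 females and 55.6, 200.2, 42.6 and 36.7 in Day 5 females. Its log2 fold changes were 0.67, -0.67 and 0.52 in males and -0.42, -0.62 and 0.39 in females. Col1a2 was 58.4, 59.3, 47.4 and 191 CPM in Day 0 males and 66.6, 182, 154 and 184 in Day 5 males, with log2 fold changes of 0.78, 0.11 and 0.83. In females it was 68.7, 62.2, 60.1 and 118 CPM at Day 0 and 86.3, 250.5, 86.3 and 64.3 at Day 5, with 0.04, -0.13 and 0.66. In Day 5 males, mouse 1 was the low one for all 3 genes, and the other 3 mice lay above Day 0 mice 1 to 3. Of the remaining fibrillar genes, which co-assemble with types I and III or are at home in cartilage, Col5a1 had positive values throughout (0.97, 0.58 and 0.91 in males, 0.42, 0.29 and 0.88 in females), Col5a2 ranged from -0.11 to 0.87, Col5a3 from -1.66 to 1.16, and Col11a2 from -0.95 to 2.86, none called. Col11a2 came nearest, at 1.58, 3.52, 3.71 and 8.63 CPM in Day 5 males against 0.763, 0.8499, 0 and 1.01 in Day 0 males, groups that did not overlap (adjusted p = 0.0558 by edgeR), and DESeq2 called it.

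The fibril-associated collagens bind to the surface of fibres. Col16a1 (chr4:130047840-130099283) rose in Day 5 males in every alternative fit, from 12.4, 11.3, 7.91 and 16.96 CPM at Day 0 to 20.01, 34.2, 38.6 and 27.8. The groups did not overlap, and the log2 fold change was 1.42 (SE 0.279, adjusted p = 0.0134) by edgeR. In Day 5 females Col16a1 stood at 23.1, 36.7, 21.1 and 14.3 CPM against 22.7, 18.8, 13.7 and 13.02 at Day 0, a log2 fold change of 0.48. Col12a1 (chr9:79598991-79718831), which encodes a collagen of tendon and of stressed tissue, was 7.14, 8.25, 8.46 and 15.9 CPM in Day 0 males and 12.2, 60.6, 99.1 and 35.2 in Day 5 males. Mouse 1 of Day 5 lay within the Day 0 range and the other 3 lay above it, and the log2 fold change was 2.48 (SE 0.569, adjusted p = 0.0192) by edgeR. This call was lost without Day 0 mouse 1 or 2 or Day 5 mouse 2 or 3 and with no filter on low counts (adjusted p 0.0586 to 0.0601). Females stayed at 6.08 to 13.8 CPM at Day 0 and 6.57 to 11.4 at Day 5. Col14a1, which regulates fibre growth, ranged from -0.19 to 1.11 and Col20a1, whose gene model overlaps a transcript on its own strand, from -0.56 to 0.86, neither called.

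The multiplexins Col15a1 and Col18a1 encode basement membrane collagens that carry sugar chains. Col18a1 stood at 152, 170.0, 159.6 and 181 CPM in Day 0 males, 162, 167, 171 and 437 at Day 2, 245, 194, 210.1 and 193 at Day 3 and 173, 162, 245 and 223 at Day 5. The Day 3 males all lay above the Day 0 males, with a log2 fold change of 0.32 and an adjusted p of 0.1002 by edgeR. In females it was 205, 299.6, 193 and 191 CPM at Day 0, 334, 214, 265 and 263 at Day 3 and 256, 302, 243 and 208 at Day 5, with overlapping groups and log2 fold changes of 0.27, 0.23 and 0.17. Col18a1 overlaps Slc19a1 on the opposite strand, an expressed gene with a mean of 2861 counts. Col15a1 was 20.9, 16.1, 24.4 and 46.3 CPM in Day 0 males and 9.38, 12.1, 8.5 and 27.1 in Day 5 males, and 17.9, 19.04, 14.5 and 34.1 in Day 0 females and 6.68, 106, 12.4 and 11.3 in Day 5 females, where mouse 2 alone was high. Its log2 fold changes were 0.32, -0.72 and -0.82 in males and -0.68, -0.77 and 0.67 in females, none called.

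Type VI collagen, the beaded filament collagen of fibroblasts and muscle, is built from Col6a1, Col6a2 and a longer partner such as Col6a3, Col6a5 or Col6a6. Col6a5 (chr9:105856078-105960643) rose in Day 5 males, from 0.763, 1.45, 0.483 and 4.21 CPM at Day 0 to 4.53, 10.4, 12.1 and 24.3, or from 14, 29, 14 and 75 to 83, 74, 78 and 180 raw counts in libraries with fewer counts left for nuclear genes. The lowest Day 5 male was just above the highest Day 0 male, mouse 4, and the log2 fold change was 3.02 (SE 0.726, adjusted p = 0.0223) by edgeR. The call was lost without Day 0 mouse 1 or 2 or Day 5 mouse 2, 3 or 4 (adjusted p 0.0578 to 0.0693). Females went the other way without a call, from 0.6901, 0.353, 0.9105 and 2.77 CPM at Day 0 to 0.563, 0, 0.207 and 0.217 at Day 5, a log2 fold change of -2.14 (adjusted p = 0.302 by edgeR).

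Col6a6 (chr9:105687809-105828160) fell in Day 3 males, from 7.41, 3.9, 1.69 and 3.65 CPM at Day 0 to 0.871, 1.51, 0.4902 and 1.99. The groups overlapped, since mouse 3 of Day 0 lay below Day 3 mouse 4, and the log2 fold change was -1.78 (SE 0.526, adjusted p = 0.0408) by edgeR. The call was lost without Day 0 mouse 1 or 2 or any one Day 3 mouse (adjusted p 0.0597 to 0.110) and with no filter on low counts (0.0506). The shared chains Col6a1 and Col6a2 were not called by edgeR, at 23.6 ± 17.8 and 20.6 ± 21.1 CPM in Day 0 males and 61.9 ± 25.4 and 43.9 ± 19.4 in Day 5 males. Col6a1 had log2 fold changes of 1.51 in Day 5 males and 1.14 in Day 5 females, with adjusted p values of 0.0752 and 0.219 by edgeR. DESeq2 called Col6a1 in Day 5 males, and it was called in 5 of 16 alternative fits. Col6a3 ranged from -0.33 to 0.91.

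Col8a2 (chr4:126286793-126314330), which encodes a chain of the short-chain network collagen of the cornea and blood vessels, rose in Day 5 males by the largest log2 fold change of the 31 genes. It stood at 1.09, 0.4999, 0.483 and 3.48 CPM in Day 0 males and at 3.49, 23.8, 10.7 and 12.7 in Day 5 males. The lowest Day 5 male, mouse 1, was level with the highest Day 0 male, mouse 4, and the other 3 were far above it. The log2 fold change was 3.31 (SE 0.764, adjusted p = 0.0196) by edgeR, a call lost without Day 0 mouse 1 or 2 or Day 5 mouse 2, 3 or 4 (adjusted p 0.0522 to 0.0642). Day 2 and Day 3 males lay at 0.9695 to 1.45 and 0.453 to 0.773 CPM, and Day 5 females at 1.37, 2.91, 0.519 and 0.477 against 1.02, 0.598, 1.25 and 2.99 at Day 0. Its partner Col8a1 had log2 fold changes of 0.98 in Day 5 males and -0.12 in Day 5 females, not called.

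**Figure D4:**
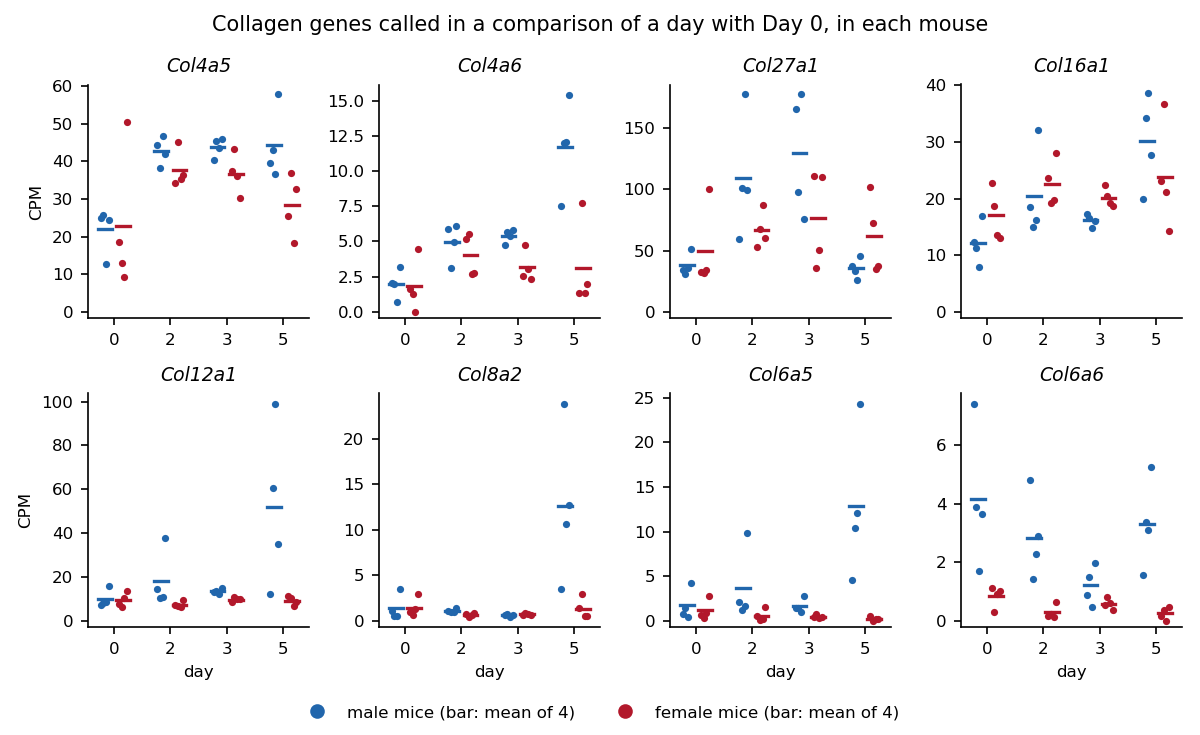
CPM of the 8 collagen genes called in at least 1 comparison with Day 0, in each mouse by day (points), males in blue and females in red, with a bar at the mean of the 4 mice. The bars of Col4a6, Col16a1, Col12a1, Col8a2 and Col6a5 are highest in the Day 5 males, and those of Col27a1 in the Day 2 and Day 3 males.

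The remaining genes were low and not called by edgeR. Col13a1, a transmembrane collagen of cell contacts and the neuromuscular junction, had positive values in both sexes, with log2 fold changes of 1.88, 2.20 and 2.01 in males and 1.65, 2.27 and 2.22 in females. It stood at 0.981, 0.7999, 0 and 1.01 CPM in Day 0 males against 4.81, 1.55, 4.11 and 2.105 at Day 3, and at 1.02, 1.47, 0 and 1.33 in Day 0 females against 5.27, 1.66, 5.92 and 6.49 at Day 3. Neither pair of groups overlapped, yet the adjusted p was 0.0814 in males and 0.107 in females by edgeR, and DESeq2 called both. Col23a1, another transmembrane collagen, had negative values in females, from 5.36, 5.68, 9.01 and 4.38 CPM at Day 0 to 2.19, 1.38, 1.21 and 2.91 at Day 2, groups that did not overlap, with a log2 fold change of -1.72 and an adjusted p of 0.0505 by edgeR. Col7a1, which encodes the anchoring fibril collagen, was 3.27, 2.35, 0 and 1.57 CPM in Day 0 males and 3.599, 7.33, 6.18 and 11.1 in Day 5 males, a log2 fold change of 2.102 (adjusted p = 0.128 by edgeR), and -0.03 in Day 5 females. Col26a1 ranged from -0.27 to 1.21, the latter in Day 5 males and called by DESeq2.

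Males and females differed in single collagen genes, and how many depended on the fit. DESeq2 called 6 at Day 2, 9 at Day 3 and 6 at Day 5, and a single edgeR fit over all 8 groups called 0 at Day 3 and 6 at Day 5. No share of all genes is given for DESeq2 or for that fit, so these counts cannot be set against one. In the edgeR fits of 1 day each, 1, 7 and 1 were called. At Day 0 these edgeR fits called 0 of the 31 genes, where 0.237% of all genes were higher and 0.212% lower in males. DESeq2 called 1, Col6a6. An unadjusted p under 0.05 by edgeR was found for 2 collagen genes, and for 1289 of all 16042 genes tested. At Day 2, Col6a6 alone was higher in males and 0 genes were lower, where 0.891% of all genes were higher and 0.578% lower. Col6a6 stood at 4.81, 1.42, 2.27 and 2.89 CPM in Day 2 males and 0.168, 0.222, 0.115 and 0.656 in Day 2 females, the latter from 5, 9, 4 and 18 raw counts. The groups did not overlap, and the log2 difference was 3.35 (SE 0.548, adjusted p = 0.0146) by edgeR. The call was lost without female mouse 2 (adjusted p = 0.0711) or mouse 3 (0.0591). On the other days the log2 difference of Col6a6 was 2.31 at Day 0, 1.03 at Day 3 and 3.90 at Day 5, none called by edgeR, while DESeq2 called those at Day 0 and Day 5.

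At Day 3, when mice of a sex were closest together in summed collagen level, 5 genes (16.1%) were higher and 2 (6.45%) lower in males, against 10.6% and 10.7% of all genes. Col6a5 was 1.49, 1.47, 1.02 and 2.73 CPM in males and 0.3996, 0.759, 0.282 and 0.4003 in females, with no overlap and a log2 difference of 1.85 (SE 0.384, adjusted p = 0.00964) by edgeR. Col8a1 was lower in males, at 5.89, 3.94, 4.49 and 5.18 CPM against 14.2, 7.16, 7.45 and 9.24, with -0.96 (SE 0.239, adjusted p = 0.02104), a call lost without male mouse 2, 3 or 4 (adjusted p 0.0523 to 0.0675). Col4a6 was 4.73, 5.64, 5.39 and 5.85 CPM in males and 2.55, 4.72, 3.08 and 2.35 in females, with 0.77 (SE 0.2105, adjusted p = 0.0288), lost without male mouse 2, 3 or 4 or female mouse 1, 3 or 4 (0.0651 to 0.0775). The other higher genes were Col14a1 (0.62), Col12a1 (0.49) and Col1a2 (0.42, from 97.8 ± 5.01 CPM in males and 73.1 ± 7.83 in females), and Col16a1 was lower by a small amount (-0.32), a call lost without male mouse 2, 3 or 4 or female mouse 1 (adjusted p 0.0651 to 0.0833). In a single fit over all 8 groups, in which the spread of the other days enters, 0 genes were called at Day 3, with adjusted p values of 0.837 for Col1a2, 0.668 for Col14a1, 0.777 for Col12a1 and 0.407 for Col6a5. Without female Day 3 mouse 2, 16 genes were called, 13 higher and 3 lower, when 34.6% of all genes were called. Markers of other cells differed between the sexes at Day 3 too. Of 10 endothelial markers 6 were higher in males, with sums of 792 to 846.5 CPM in males and 574 to 778 in females. Of 9 proximal tubule markers 5 were higher, with sums of 15900 to 24660 and 5387 to 14150 CPM. Of 8 fat markers 5 were lower in males, with sums of 201 to 269 and 384 to 681 CPM, and of 12 fibroblast and pericyte markers 2 were higher and 1 lower. Their part in the collagen differences was not tested.

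At Day 5, Col6a5 alone was higher in males and 0 genes were lower, where 0.217% of all genes were higher and 0.0591% lower. Col6a5 had 83, 74, 78 and 180 raw counts in males and 16, 0, 6 and 5 in females. The log2 difference was 5.57 (SE 0.694, adjusted p = 0.0202) by edgeR, and every male lay above every female. The call was lost without male mouse 2 (adjusted p = 0.0602) or 4 (0.0556), or female mouse 1 (0.0517), 3 (0.163) or 4 (0.104). The library labelled male mouse 1, which held Xist beside Y-linked transcripts, was the lowest of the Day 5 males for Col6a5, Col8a2, Col12a1 and Col4a6. Without it 9 genes were called, all higher in males, when 17% of all genes were called, namely Col6a5 (log2 difference 5.92), Col8a2 (3.91), Col6a6 (4.21), Col12a1 (3.01), Col11a2 (2.58), Col4a6 (2.36), Col6a2, Col23a1 and Col4a5.

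Whether the change from Day 0 differed between the sexes was tested by the interaction of sex and day. Fitted to Day 0 and 1 later day, edgeR called 0 of the 31 genes on each day, while a single fit over all 8 groups called 4 at Day 5. At Day 2, where 0% of all genes were called, DESeq2 called 0. The unadjusted p by edgeR was under 0.05 for 3 collagen genes, and for 738 of all 17467 genes tested. At Day 3, where 0.0114% of all genes were called, DESeq2 called 0. The unadjusted p was under 0.05 for 1 collagen gene, and for 1252 of all 17598 genes tested. At Day 5, where 0.243% of all genes were called by edgeR, the unadjusted p was under 0.05 for 7 collagen genes, and for 2568 of all 16907 genes tested. DESeq2 called 4, namely Col6a5, Col8a2, Col12a1 and Col23a1, and no share of all genes is given for it. In the edgeR fit of Day 0 and Day 5 the largest interaction was that of Col6a5, at 5.06 (SE 1.15, adjusted p = 0.0711), followed by Col8a2 at 3.53 (adjusted p = 0.144). Without male Day 5 mouse 1 edgeR called the same 4 genes as DESeq2, when 6.74% of all genes were called. A call in males and none in females is therefore not by itself a difference between the sexes here.

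Because mouse 4 of Day 0 stood high in both sexes, every comparison with Day 0 was also fitted without it, a choice made after the data were seen. In males the number of genes that rose went to 8 at Day 2, 12 at Day 3 and 13 at Day 5, when 6.4%, 16.1% and 10.5% of all genes rose, and Col6a6 fell at Day 3, when 18.6% of all genes fell. In females 8 rose and 1 fell at Day 2, 7 rose at Day 3 and 5 rose at Day 5, when 13.4%, 18.7% and 4.85% of all genes rose and, at Day 2, 15% fell. Calls over all genes thus grew along with those of collagen genes. In males at Day 5 the fibrillar genes Col1a1 (2.23, adjusted p = 0.0246 by edgeR), Col3a1 (1.54, 0.0332), Col1a2 (1.51, 0.0233) and Col5a1 (1.69, 0.0291) were then called, and so were Col6a1 (2.14, 0.0184) and Col6a2 (2.21, 0.0227).

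Leaving out a Day 0 mouse with high collagen values raises the fold changes of those genes by construction, so these calls are given as a description. In females without mouse 4, Col4a1 was called on all 3 days (1.33, 1.23 and 1.62), as were Col4a2 (1.21, 1.03 and 1.54) and Col4a5 (1.42, 1.38 and 1.05). Col4a3 was called at Day 2 (1.54) and Day 3 (1.54), Col4a4 at Day 2 (0.66), and the one fall was Col23a1 at Day 2 (-1.86). Outside type IV, Col8a1 rose at Day 2 (1.20) and Day 3 (1.48), Col5a1 at Day 2 (0.83) and Day 3 (0.71), Col27a1 at Day 2 (0.97), Col6a1 at Day 3 (0.63) and Day 5 (1.47), and Col5a3 at Day 5 (1.38). Mitochondrial transcripts were 24.0% of the counts in the male mouse 4 and 19.7% in the female one, and their part in its collagen level was not tested.

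**Figure D5:**
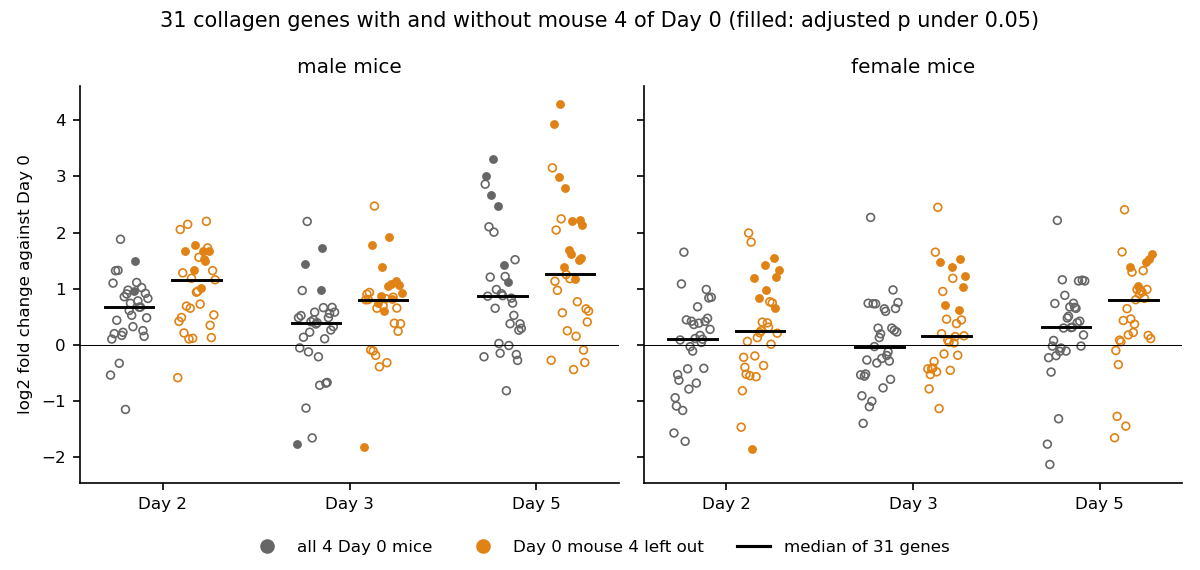
Log2 fold change against Day 0 of the 31 collagen genes (one point each) in males (left) and females (right), grey with all 4 Day 0 mice and orange without mouse 4, filled where the adjusted p was under 0.05, with a bar at the median. The medians move up in each comparison, from 0.86 to 1.25 in Day 5 males and from 0.31 to 0.80 in Day 5 females, and filled points appear in the female panel only without mouse 4.

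Of 15 laminins and other basement membrane genes, the partners of type IV collagen, 7 rose at Day 2, 8 at Day 3 and 5 at Day 5 in males, when 1.81%, 11.4% and 8.98% of all genes rose. In females 1, 2 and 0 rose, when 0.774%, 1.26% and 0.185% of all genes did, and none fell in either sex by edgeR. DESeq2 called 8, 9 and 8 of the 15 in males and 4, 4 and 2 in females, and its share over all genes is not given here. The interaction of sex and day was called for 0 of the 15 on each day by edgeR, and for 0, 2 and 1 by DESeq2. By edgeR 1, 2 and 4 of the 15 had an unadjusted p under 0.05. So did 738 of 17467, 1252 of 17598 and 2568 of 16907 genes tested. Agrn, the gene of the basement membrane proteoglycan agrin, rose by 1.12 and 1.06 at Day 2 and Day 3 in males and by 1.56 and 1.27 in females (log2 fold change). Lama5, the alpha chain of the mature glomerular laminin, rose by 1.17, 1.14 and 1.55 in males. The summed level of the list was 509 ± 138 CPM in Day 0 males and 991 ± 199, 905 ± 15.3 and 959.5 ± 144 on the later days, and 532 ± 162, 972 ± 204, 842 ± 58.4 and 866 ± 253 in females.

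Of 23 collagen maturation enzymes and chaperones tested in males, 2 rose and 4 fell at Day 3, when 11.4% of all genes rose and 13.1% fell, and 2 rose and 2 fell at Day 5, when 8.98% rose and 10.2% fell. By edgeR 0 were called at Day 2 in males, where 6 had an unadjusted p under 0.05 and DESeq2 called 4. In females 0 were called on any day, where 3, 6 and 3 had an unadjusted p under 0.05 on the 3 days and DESeq2 called 1, 4 and 1. Over all genes tested, 4654 of 16051 had an unadjusted p under 0.05 at Day 2 in males. In females 4189 of 16541, 5247 of 17065 and 2548 of 16260 did on the 3 days. Crtap, part of the complex that hydroxylates a proline of fibrillar chains, fell in males (log2 fold change -0.60 at Day 3 and -0.89 at Day 5), as did Pcolce2, an enhancer of propeptide removal (-1.30 at Day 3), while Tll1, a propeptidase, rose by 1.83 at Day 3. Of 7 crosslinking enzymes, the lysyl oxidase Loxl4 rose by 1.98 and the transglutaminase Tgm2 changed by -0.69 in Day 5 males. Of 8 collagen receptors tested, Itga1 rose by 0.49 at Day 3, and Itga2 by 2.72 and Ddr2 by 1.44 at Day 5, all in males. Of the proteases and inhibitors, 1 of 14 fell at Day 3, and of 15 tested at Day 5 in males Fap rose by 2.85 and Timp2 by 1.69 while Ctsl changed by -1.07. In females 0 receptors, crosslinking enzymes or proteases were called by edgeR, while 1 to 4 of each list had an unadjusted p under 0.05 on each day and DESeq2 called 0 to 2.

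Markers of cells that make collagen, and of tissue around the kidney, were looked at beside these results. The 12 fibroblast and pericyte markers summed to 254 ± 125 CPM in Day 0 males (range 185 to 442), 325 ± 58.6 at Day 2, 293 ± 22.9 at Day 3 and 872 ± 500.5 at Day 5 (range 319 to 1503), with 1, 2 and 4 of 12 rising by edgeR, when 1.81%, 11.4% and 8.98% of all genes rose, and 1 falling at Day 3, when 13.1% fell. Pdgfra, a receptor of fibroblasts, rose by 1.52, 1.57 and 1.38 in males, Postn, a matrix protein of activated fibroblasts, by 3.42 at Day 5, and Acta2, the smooth muscle actin, changed by -1.07 at Day 3 in males and -0.90 in females. In females the list summed to 272 ± 74.6 CPM at Day 0 and 381 ± 151 at Day 5, with 0 rising and 1 falling at Day 3. Fat markers summed to 804 ± 811 CPM in Day 0 males (range 349.5 to 2015) and 2054 ± 1115 in Day 5 males (range 666 to 3314), ranges that overlap. In Day 5 males, the group in which Col8a2, Col12a1, Col6a5 and Col16a1 were high, edgeR called 0 of the 8 fat markers and DESeq2 called 1. In females the fat markers summed to 992 ± 316 CPM at Day 0 and 778 ± 378 at Day 5. Of 8 fat markers 3 fell in Day 3 males, when 13.1% of all genes fell, including Cfd (-1.90) and Lep (-2.94), and in females 1 fell on each day, when 1.16%, 4.28% and 0.0738% of all genes fell, the brown fat gene Ucp1 (-2.25, -1.94 and -2.91). The part of these cells in the collagen results was not tested.

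Of 8 podocyte markers, the cells that make the glomerular type IV chains, 2 rose at Day 2 and 3 at Day 3 in males and 0 at Day 5, when 1.81%, 11.4% and 8.98% of all genes rose. In females 0 were called by edgeR or DESeq2, and 4, 2 and 0 had an unadjusted p under 0.05 by edgeR. So did 4189 of 16541, 5247 of 17065 and 2548 of 16260 genes tested. Ptpro rose by 1.22 and 1.14, Podxl by 1.02 and 1.05 and Nphs1, the gene of nephrin, by 1.13. The list summed to 271 ± 52.5 CPM at Day 0, 471 ± 71.8 at Day 2, 468 ± 40.3 at Day 3 and 260.4 ± 97.3 at Day 5 in males, and to 375 ± 104, 587 ± 92.8, 522 ± 18.4 and 407 ± 117 in females. Of 10 endothelial markers, 2, 2 and 3 rose in males, when 1.81%, 11.4% and 8.98% of all genes rose. They were led by Tek (1.24, 1.24 and 0.90), Flt1 (1.03 and 1.27) and Cdh5 (1.26), and 1 endothelial marker fell in Day 3 females, when 4.28% of all genes fell. By edgeR, of 8 macrophage markers 3 fell at Day 3 and 1 at Day 5 in males, when 13.1% and 10.2% of all genes fell, and 1 at Day 3 in females, when 4.28% fell, including C1qa (-1.55 in males and -1.81 in females), C1qc (-1.05) and Csf1r (-0.57 and -0.65). DESeq2, whose share over all genes is not given here, called 0, 3 and 2 of the macrophage markers in males on the 3 days and 4, 4 and 1 in females. Of 9 proximal tubule markers 1 rose at Day 3 in males, when 11.4% of all genes rose. At Day 5 in males 3 fell, when 10.2% of all genes fell, namely Kap (-3.54), Slc22a6 (-3.12) and Slc34a1 (-2.93). The list summed to 45520.0 ± 27290.0 CPM at Day 0 and 4857 ± 3093 at Day 5. Most skeletal muscle markers were too low to test, and Pvalb, also a gene of the distal tubule, fell in Day 3 males (-3.86) and in Day 2 and Day 3 females (-3.03 and -3.74). The part of a shift in cell makeup in the collagen results was not tested.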

How the data were processed

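Kidney RNA libraries of 32 mice were analysed from 2 tables. One table deposited by the authors holds raw counts and the other FPKM values of the same libraries, from paired-end sequencing with alignment to GRCm38 per the study's methods. The submitters' notes name GRCm39, mm39, HTSeq and DESeq2 without a role. The coordinates in the count table matched those of GRCm38 (GENCODE M21) for 53462 of 54409 shared genes and all 31 collagen genes, so GRCm38 was used. The counter's version, the annotation release and the use of strand are not given in the sources used here.

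Tests used the quasi-likelihood method of edgeR 4.0.16 (R 4.3.3) on the counts, with filterByExpr, TMM, robust dispersions and Benjamini-Hochberg adjustment over all genes, fitting only the groups compared. A gene was called at an adjusted p under 0.05. SEs are of the log2 fold change, and CPM used TMM factors over the 32 libraries. Summed levels and ratios were described without a test. Alternatives were DESeq2 1.42.0, its size factors, no filter, at least 10 counts in every library, a replicate block, mitochondrial genes left out, 1 fit over 8 groups, a log2 fold change over 1.5 and leaving out each mouse. No share of all genes called is given for DESeq2 or for the fit over 8 groups. The fits were tested on simulated data. No 2 libraries held the same counts. The study gives the 4 mice of a group as biological replicates.

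The genes described in full were Col1a1, Col1a2, Col3a1, Col4a1 to Col4a5, Col15a1 and Col18a1, up to 5 called genes with the largest change and no overlap per comparison with Day 0, up to 3 called genes per comparison of the sexes, the genes next to the count minimum, and up to 3 genes per list. Others are named for completeness. The members and lists were chosen with earlier results of these data known, and no list was tested as a set. Sequences came from RefSeq tables of GRCm38.p6.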

Additional observations from a re-analysis of the deposited data

Results flagged for a closer look

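Of 280 sets of 4 mice examined (each collagen gene, the summed level and the chain ratios in each group), 42, or 15%, held a mouse far from the other 3 by Dixon's criterion. The cut-off used is passed by about 1 in 20 single sets of normally distributed values. The sets here share the same mice, so the 15% cannot be set against that rate. Day 5 female mouse 2 accounted for 12, all high. Its summed collagen level was 2877 CPM, with Col4a1 at 600.8, Col4a2 at 425, Col1a2 at 250.5, Col3a1 at 200.2, Col14a1 at 162, Col1a1 at 122, Col15a1 at 106, Col6a3 at 59.4, Col5a1 at 46.0, Col4a6 at 7.76 and Col20a1 at 2.91 CPM. Day 0 male mouse 4 was high for 6 genes, with Col3a1 at 247, Col1a2 at 191, Col1a1 at 175, Col5a3 at 37.7, Col12a1 at 16.0 and Col8a1 at 7.25 CPM. Day 0 female mouse 4 was high for Col1a2 at 118, Col3a1 at 114 and Col27a1 at 100.1 CPM. Day 2 male mouse 4 was high for 5 genes, with Col18a1 at 437, Col6a1 at 78.4, Col6a2 at 57.8, Col12a1 at 37.8 and Col6a5 at 9.86 CPM.

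Day 2 female mouse 1 was high for Col4a2 at 359, Col1a2 at 115, Col6a1 at 53.1 and Col5a1 at 21.7 CPM, and low in the log2 ratio of Col4a3 to Col4a4 at -0.68. Day 0 male mouse 3 was low for Col4a3 at 38.6 and Col4a5 at 12.8 CPM and high in the log2 ratio of Col4a1 to Col4a2 at 0.96. Day 5 male mouse 1 was high in the log2 ratio of Col4a3 to Col4a4 at 0.046 and low for Col23a1 at 1.91 CPM. Single values stood apart for Col18a1 in Day 0 female mouse 2 (299.6 CPM), Col5a2 in Day 2 female mouse 4 (30.3 CPM), Col26a1 in Day 3 female mouse 2 (4.83 CPM), Col11a2 in Day 2 male mouse 3 (0.406 CPM), Col5a3 in Day 5 male mouse 4 (26.8 CPM) and the log2 ratio of Col4a3 to Col4a4 in Day 3 male mouse 4 (-0.31).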

How the results depend on the processing

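The counts of collagen genes called stayed within 1.5 times in all 13 comparisons with DESeq2 size factors or without mitochondrial genes. By the DESeq2 Wald test they were 1 for females at Day 2 and 1 at Day 3, 1 for males against females at Day 0, 6 at Day 2, 6 at Day 5, and 4 for the interaction at Day 5. With no filter they were 1 for females at Day 2 and 2 for males against females at Day 5, and with at least 10 counts in every library 1 for females at Day 2 and 0 for males against females at Day 2 and Day 5. In the fit over all 8 groups they were 10 for males at Day 5, 1, 1 and 2 for females at Day 2, Day 3 and Day 5, 1, 0 and 6 for males against females at Day 0, Day 3 and Day 5, and 4 for the interaction at Day 5. With a log2 fold change over 1.5 required, they were 0 and 2 for males at Day 2 and Day 3 and 1 for males against females at Day 3. Mice with the same number were not treated as pairs (r -0.55 to 0.58 over 40 pairs, 10 over 0.1), though 3 of the 4 pairs across the sexes at Day 0 deviated together (r 0.373, 0.561 and 0.58, against -0.114 for mice 2), and with the replicate block the counts were 0 and 0 for males at Day 2 and Day 3, 3 and 0 for males against females at Day 2 and Day 5, and 1 for the interaction at Day 5. With Day 0 mice 3 and 4 left out, chosen after seeing the data, they were 7, 19 and 12 in males and 7 and 7 in females at Day 2 and Day 3. No share of all genes is given for these fits. Without mouse 4 alone, 14%, 34.7% and 21.7% of all genes were called in males on the 3 days, and 28.3% and 39.1% in females at Day 2 and Day 3. With Day 5 female mice 1 and 2 left out, also chosen after seeing the data, the count was 0 for males against females at Day 5. Leaving out 1 mouse at a time gave 0 to 8, 1 to 13 and 2 to 13 in males at Day 2, Day 3 and Day 5 and 0 to 9, 0 to 7 and 0 to 5 in females, the highest counts each without Day 0 mouse 4. It gave 0 to 1, 4 to 16 and 0 to 9 for males against females at Day 2, Day 3 and Day 5, 0 to 4 for the interaction at Day 5, and 0 throughout for males against females at Day 0 and the interactions at Day 2 and Day 3. Of 2987 log2 fold changes over the alternatives, 133 changed sign. Summed over FPKM, the collagen level was 155 in males at Day 0, 245 at Day 2, 201 at Day 3 and 219 at Day 5, and 145, 195, 185 and 225 in females. Without mitochondrial genes the sum was 1597 CPM in males and 1443 in females at Day 0, 2907, 2411 and 2635 CPM in males at Day 2, Day 3 and Day 5 and 2244, 2241 and 2528 in females, and with DESeq2 size factors 1618 in Day 3 males. From raw counts, the log2 ratio of Col1a1 to Col1a2 was -1.17, -0.92, -1.39 and -0.79 in males and -1.26, -0.96, -1.18 and -1.01 in females by day, that of Col4a1 to Col4a2 was 0.40 in Day 0 females, 0.35, 0.37 and 0.48 in Day 2, Day 3 and Day 5 males and 0.52 in Day 3 females, and that of Col4a3 to Col4a4 was -0.28 in Day 3 males and -0.022 in Day 3 females, the shifts being set by gene length. The cause of the other changes was not tested. Counts were fewest for Col11a2, Col6a6, Col8a2, Col20a1 and Col6a5 (mean raw counts of 24.6 to 45.6).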
